A study of Mus musculus with 8 samples.

Results

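Receptors whose names are Gpr and a number were followed in the striatum of newborn mice without Ctip2 (Bcl11b), a zinc finger DNA-binding factor made by the striatal projection cells known as medium spiny neurons. The members are all probe sets of the array that carry a single gene symbol consisting of Gpr, digits and at most 1 letter. They number 91 of 45037 probe sets and stand for 59 genes. Each array held RNA of 1 animal, taken from punches of the central striatum at postnatal day 0. There were 4 Ctip2 null mutants, 1 Ctip2 heterozygote and 3 wild type mice, all of strain BALB/c. The null mice lack Ctip2 in every cell that would express it, so that the arrays show the striatum of a whole-body mutant, and the sources used here do not say how the allele was made. Expression was read per probe set on the log2 scale, and a difference of 1 on this scale is a 2-fold difference. Because each array is a separate animal, the p values measure the spread between animals, and with only 7 arrays in the test their number limits the precision.

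The Gpr names were given in order of discovery to proteins with 7 membrane-spanning segments, often before a ligand was known, so the group joins receptors that are not all related by descent. Receptors of this kind pass a signal to G proteins inside the cell. Gs and its olfactory and striatal relative Golf raise cyclic AMP, whereas Gi lowers it. Some orphan receptors, such as Gpr3, Gpr6 and Gpr12, raise cyclic AMP without any added ligand. In the striatum Gpr6 is known as a receptor of the medium spiny neurons of the indirect pathway, which also carry the dopamine D2 receptor Drd2 and the peptide precursor Penk.

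Among the 91 probe sets, 2 passed the threshold of an adjusted p of 0.05 in limma, with adjustment over all 45037 probe sets. Gpr6 fell and Gpr153 rose in null striatum. For these and for Gpr3, the close relative of Gpr6 that did not pass, the 250 bases before 1 annotated start are shown, from RefSeq on GRCm38.p6. Capitals mark TGACGTCA, the cyclic AMP response element bound by CREB. The Gpr6 stretch is chr10:41072291-41072540 on the minus strand, that of Gpr153 is chr4:152273862-152274111 on the plus strand, and that of Gpr3 is chr4:133212537-133212786 on the minus strand. Gpr153 has another annotated start nearby, which is not shown.
Gpr6: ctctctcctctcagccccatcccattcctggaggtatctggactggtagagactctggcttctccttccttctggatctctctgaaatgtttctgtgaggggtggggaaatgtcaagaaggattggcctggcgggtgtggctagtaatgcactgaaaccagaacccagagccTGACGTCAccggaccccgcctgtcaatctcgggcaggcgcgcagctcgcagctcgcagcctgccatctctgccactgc
Gpr153: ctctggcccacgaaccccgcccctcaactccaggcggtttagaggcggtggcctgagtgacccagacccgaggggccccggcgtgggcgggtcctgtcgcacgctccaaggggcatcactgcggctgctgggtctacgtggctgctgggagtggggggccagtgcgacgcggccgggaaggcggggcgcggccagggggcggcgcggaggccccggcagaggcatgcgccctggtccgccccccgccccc
Gpr3: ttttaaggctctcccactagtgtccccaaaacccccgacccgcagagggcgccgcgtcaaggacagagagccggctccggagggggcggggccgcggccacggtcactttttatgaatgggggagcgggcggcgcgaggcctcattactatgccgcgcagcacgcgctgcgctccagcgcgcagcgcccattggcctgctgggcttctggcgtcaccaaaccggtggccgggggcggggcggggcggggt
The stretch before Gpr6 holds 58.4% G and C and 9 CG dinucleotides. That before Gpr153 holds 76.8% G and C and 26 CG dinucleotides, and that before Gpr3 holds 70.8% and 29. The medians over all promoters of this length were 52.4% and 6. The letters TGACGTCA, which read alike on both strands, occurred in 1.55% of 32851 promoters and in 1 of the 60 promoters found for 45 of the 59 member genes (1.67%), that of Gpr6. The letters TGACCA, the motif bound by the related factor BCL11A in human cells, were searched on both strands. Neither motif contains the other. TGACCA occurred in 8 of the 60 member promoters (13.3%) and in 11.4% of all promoters, and it was not among the letters of the stretches shown. A match is a description of the letters and shows no binding.

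The mutation was seen first on the 4 probe sets of Bcl11b, all of which fell in null striatum by limma, with log2 differences between -1.66 and -1.11. Their null means still lay between 8.31 and 11.18, above the median of all probe sets, so these values do not show absence of the transcript. On all 4 the heterozygote stood at or above the lowest wild type array. The mean of 13 measured medium spiny neuron markers lay between 9.38 and 9.55 in null arrays, at 10.34 in the heterozygote and between 9.64 and 9.90 in wild type arrays, so that the labelled tissue carried its defining genes in every group. Of these 13 markers, 4 fell and none rose, where 0.453% and 1.87% of all probe sets did. The marker lists were chosen with earlier results of these data known. Of 12 microglial and macrophage markers, 7 endothelial, 7 oligodendrocyte, 5 choroid plexus and 5 cortical projection neuron markers, none passed the threshold in limma. On 6 of the 12 microglial markers, however, every null array was above every wild type array. This held for 7.7% of all probe sets and for 12.1% of those whose mean was above the median. The SD of all log2 values on an array was 1.90 to 2.05 in null, 2.06 in heterozygote and 1.84 to 1.97 in wild type striatum. Probe sets of low signal shared a small shift. Of all probe sets whose mean was below the median of 6.30, 75% had a difference below 0, against 48.9% of those above it.

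Gpr6 was the only member that fell. Its probe set 1440148_at, for a gene on chromosome 10, read 5.42, 5.18, 5.45 and 6.02 in the null arrays, 7.50 in the heterozygote, and 9.08, 7.12 and 6.84 in the wild type arrays. Every null array was below every wild type array, and the wild type animals were far more spread than the null ones. The means were 5.52 ± 0.36 (SD, n = 4) in null and 7.68 ± 1.22 (SD, n = 3) in wild type striatum. The log2 difference was -2.16 with a standard error of 0.46, a 4.48-fold lower value (limma, adjusted p = 0.0448). Wild type replicate 1 stood well above the other two. Without it the difference was -1.46 (adjusted p = 0.0146). The call was lost in limma without wild type replicate 2 (adjusted p = 0.0853), wild type replicate 3 (0.0607), null replicate 1 (0.104), null replicate 2 (0.131) or null replicate 3 (0.0915), with differences of -2.58 to -2.05. It was also lost with each array centred on its median (0.0891), with the SD of each array as a covariate (0.140) and with the heterozygote among the controls (0.0669). The heterozygote lay 0.08 of the way between the wild type mean, taken as 0, and the null mean, taken as 1. It is a single array and was not tested. In whole tissue, fewer cells of a type and less RNA per cell cannot be told apart. Ttr, the abundant transcript of the choroid plexus, read 7.11, 13.44, 8.27 and 11.17 in null arrays, 7.44 in the heterozygote and 13.34, 9.37 and 11.44 in wild type arrays. Without the arrays of highest Ttr, null replicate 2 and wild type replicate 1, the Gpr6 difference was -1.35 (adjusted p = 0.0439).

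Gpr153 was the only member that rose. It is an orphan receptor whose closest relative is Gpr162, and its probe set 1426973_at belongs to a gene on chromosome 4. Its values were 8.77, 8.76, 9.10 and 8.66 in null arrays, 8.52 in the heterozygote, and 7.18, 8.09 and 7.58 in wild type arrays. All null arrays were above all wild type arrays, and the heterozygote lay between the groups, nearer to the null side. The means were 8.82 ± 0.19 (SD, n = 4) in null and 7.62 ± 0.45 (SD, n = 3) in wild type striatum. The log2 difference was 1.21 with a standard error of 0.21, a 2.31-fold higher value (limma, adjusted p = 0.0185). The heterozygote stood at 0.75 on the same scale from the wild type mean to the null mean. With the heterozygote placed among the controls the difference was 0.98 and the call was lost (adjusted p = 0.181). It was also lost without wild type replicate 3 (adjusted p = 0.0862), null replicate 1 (0.0540) or null replicate 2 (0.0591), at differences of 1.19 to 1.23, and with the SD of each array as a covariate (0.0888). Without null replicate 2 and wild type replicate 1 together, the arrays of highest Ttr, it was 1.01 (adjusted p = 0.0769). Gpr162 read 8.44, 8.39, 8.07 and 8.24 in null arrays, 8.33 in the heterozygote, and 7.59, 8.04 and 7.95 in wild type arrays. Its groups did not overlap either, but its difference of 0.43 did not pass (limma, adjusted p = 0.181).

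**Figure D1:**
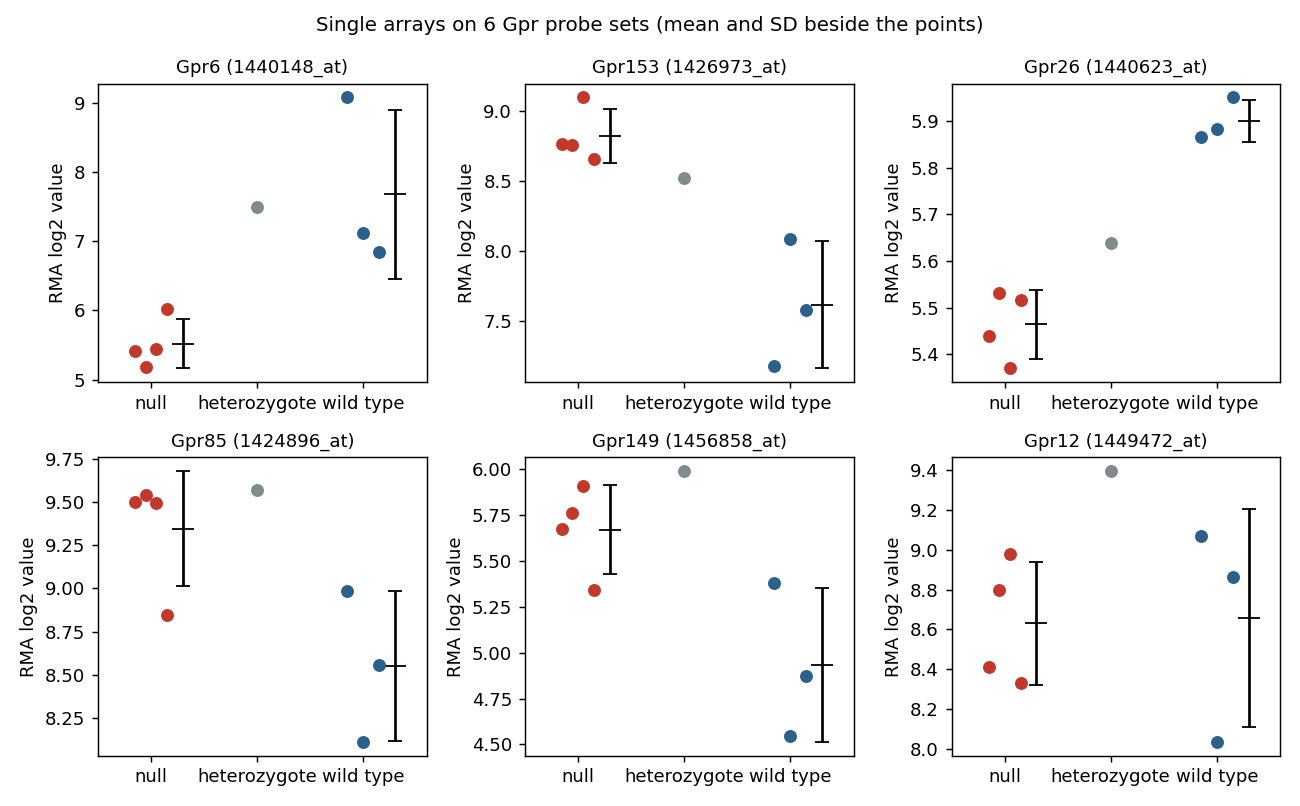
Log2 expression values (vertical axes) of 6 Gpr probe sets on single arrays of null, heterozygote and wild type striatum, with the mean and SD of the null and wild type groups beside the points. On Gpr6, Gpr153 and Gpr26 no null array overlaps a wild type array, whereas on Gpr85, Gpr149 and Gpr12 the groups overlap.

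Set against the whole array, called members were about as rare as called probe sets in general. In limma, 1 of 91 members passed higher, where 1.87% of all probe sets did, and 1 passed lower, where 0.453% of all probe sets did. The other 89 did not pass. At an unadjusted p of 0.05, 10 were higher and 14 lower, beside 4899 higher and 3937 lower of all 45037 probe sets. Every null array was above every wild type array on 5 members (5.49%), against 7.7% of all probe sets. Every null array was below every wild type array on 12 members (13.2%), against 8.85% of all probe sets. The median log2 difference was -0.08 over the members and -0.08 over all probe sets. A difference below 0 was found on 60 of 91 members (65.9%) and on 62% of all probe sets. The share below 0 was 74.1% of the 54 members under the median signal and 54.1% of the 37 above it, beside 75% and 48.9% of all probe sets. On 84 of 91 members the difference was under 0.5 in size, beside 39893 of all 45037 probe sets. Among the members only Gpr6 and Gpr153 reached 1, beside 998 of all 45037 probe sets.

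**Figure D2:**
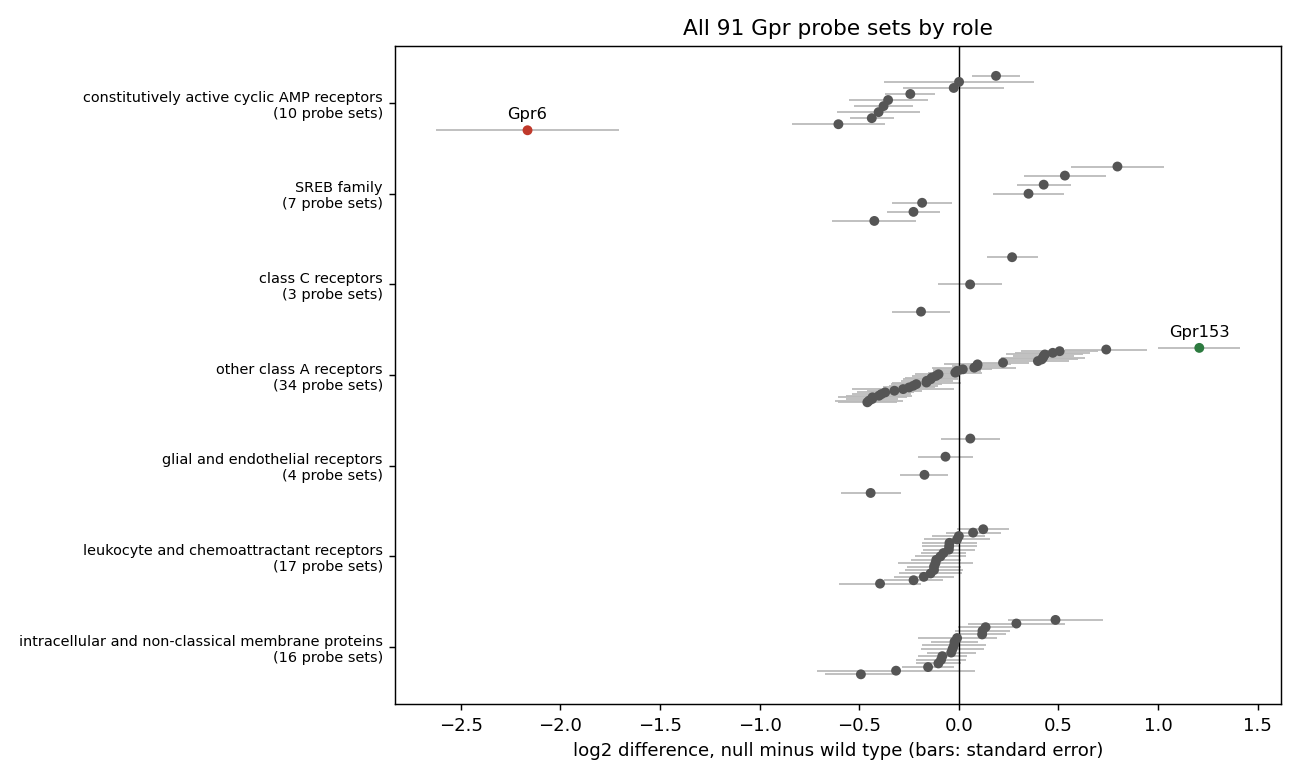
Log2 difference, null minus wild type (horizontal axis), of all 91 Gpr probe sets in rows by role, with bars for the standard error. The coloured points, Gpr6 at -2.16 and Gpr153 at 1.21, passed the threshold in limma. Within 0.5 of 0 lie 84 of the 91 points, beside 39893 of all 45037 probe sets.

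The receptors that raise cyclic AMP without added ligand gave 10 probe sets for 6 genes. Of these 1 fell, Gpr6, none rose, and 9 did not pass. The median log2 difference was -0.37, and 8 of the 10 were below 0, against 62% of all probe sets. Of the 10, 5 lay under the median signal, where 75% of all probe sets were below 0. Gpr3, known for setting the cyclic AMP level that holds oocytes in meiotic arrest, read 7.34, 7.16, 7.37 and 7.47 in null arrays, 7.38 in the heterozygote, and 7.45, 7.61 and 7.68 in wild type arrays. The groups overlapped, at a difference of -0.24 (limma, adjusted p = 0.303).

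Gpr12 had 3 probe sets. On 1449472_at it read 8.41, 8.80, 8.98 and 8.33 in null arrays, 9.40 in the heterozygote, and 9.07, 8.03 and 8.86 in wild type arrays, a difference of -0.03. On 1457729_at the difference was 0.00, and on 1457702_at it was -0.60 (limma, adjusted p = 0.209). On each of the 3 the groups overlapped, and on 1449472_at and 1457702_at the heterozygote was above all 7 other arrays. The fall of Gpr6 was not matched by a called change on any probe set of Gpr3 or Gpr12. Whether the difference of Gpr6 differs from theirs was not tested.

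Gpr26 is a brain receptor that raises cyclic AMP in cultured cells. Its probe set 1440623_at read 5.44, 5.53, 5.37 and 5.52 in null arrays, 5.64 in the heterozygote, and 5.87, 5.88 and 5.95 in wild type arrays. The groups were tight and stood apart, with the heterozygote in the gap between them. This probe set lay under the median signal, where 75% of all probe sets had a difference below 0. Every null array was below every wild type array on 9.74% of all probe sets under that median. The difference of -0.44 had a standard error of 0.11 and did not pass (limma, adjusted p = 0.0788). On its other probe set, 1444661_at, the groups overlapped at a difference of -0.40 (adjusted p = 0.306). The remaining 3 probe sets of this role belong to Gpr61 and Gpr62, with differences between -0.38 and 0.19, none of which passed.

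The SREB family, for superconserved receptors expressed in brain, comprises Gpr27, Gpr85 and Gpr173. None of its 7 probe sets passed, and their median log2 difference was 0.35. Gpr85, the most conserved of the 3 and known from adult hippocampus and from newborn neurons, read 9.50, 9.54, 9.49 and 8.85 on 1424896_at in null arrays, 9.57 in the heterozygote, and 8.98, 8.11 and 8.56 in wild type arrays. Only null replicate 4 fell within the wild type range. The difference was 0.80 with a standard error of 0.23 (limma, adjusted p = 0.116). It passed without null replicate 4 (0.96, limma, adjusted p = 0.0354) or without wild type replicate 1 (1.01, adjusted p = 0.0441). In these 2 fits the higher calls over all probe sets also grew, from 840 to 1713 and 1733. The difference on 1424896_at is thus 1 of many that passed there. It did not pass without any other single array, for example without wild type replicate 2 (0.58, limma, adjusted p = 0.358). Across the 19 alternatives that kept this probe set its difference was 0.35 to 1.01, and it passed in 5.

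On the Gpr85 probe set 1437618_x_at the values were 11.19, 11.16, 11.16 and 11.05 in null arrays, 11.07 in the heterozygote, and 10.93, 10.46 and 10.76 in wild type arrays. Here the groups stood apart at a difference of 0.43 (limma, adjusted p = 0.146). The suffix x marks probe sets whose probes may match other transcripts too. The other 2 Gpr85 probe sets had differences of 0.35 and -0.42. Gpr173 had 0.53 on 1457229_at (adjusted p = 0.210) and -0.23 on 1429986_at, while Gpr27 had -0.18. The probe sets of this family with a negative difference included both that lay under the median signal, 1429986_at and the Gpr85 probe set 1459795_at.

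Of 34 probe sets for 21 other class A (rhodopsin-like) receptors, 1 rose, Gpr153, and none fell, with a median log2 difference of -0.11. Gpr149, an orphan receptor known from mouse oocytes, read 5.67, 5.76, 5.91 and 5.34 on 1456858_at in null arrays, 5.99 in the heterozygote, and 5.38, 4.55 and 4.87 in wild type arrays. The groups overlapped by null replicate 4 and wild type replicate 1 alone. The difference was 0.74 with a standard error of 0.21 (limma, adjusted p = 0.104), and it passed without wild type replicate 1 (0.96, adjusted p = 0.0282). Across the 19 alternatives that kept this probe set its difference was 0.34 to 0.96, and it passed in 3. The second Gpr149 probe set, 1438210_at, gave 0.51 (limma, adjusted p = 0.207) and passed without null replicate 4 (0.69, adjusted p = 0.0218). It passed in 3 of the 18 alternatives that kept it, and its difference over these 18 was 0.18 to 0.69. Higher calls over all probe sets grew from 840 to 1733 without wild type replicate 1 and to 1713 without null replicate 4. Both Gpr149 probe sets lay under the median signal.

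Gpr83, a receptor for a peptide cut from proSAAS, did not overlap between the groups on either of its probe sets, but the margins were small. The lowest null and highest wild type values were 6.968 and 6.957 on 1439569_at, and 7.369 and 7.366 on 1423415_at. On 1439569_at it read between 6.97 and 7.31 in the 4 null arrays, 8.07 in the heterozygote, and 6.77, 6.96 and 6.41 in wild type arrays. The difference was 0.40 there (limma, adjusted p = 0.215) and 0.22 on 1423415_at (adjusted p = 0.342). On 1439569_at the heterozygote stood above all 7 other arrays. Gpr45, an orphan receptor of the nervous system, had differences of -0.40 on 1460031_at (limma, adjusted p = 0.228) and -0.39 on 1450580_at. The groups overlapped on 1450580_at. On 1460031_at they narrowly did not, with a highest null value of 7.463 and a lowest wild type value of 7.468.

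Gpr161, a receptor of the primary cilium that restrains Hedgehog signalling, had a difference of 0.42 on 1436459_at and -0.16 on 1447353_at. Gpr22 had 0.42 on 1434672_at and -0.11 on 1434673_at. Gpr19 had 0.09 and -0.02, Gpr63 -0.14 and -0.25, and Gpr101, which couples to Gs, -0.10. None of these passed in limma, and the groups overlapped on each. The rest of this role, other than Gpr153, lay between -0.46 and 0.47.

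Class C receptors have a large extracellular part and include the metabotropic glutamate receptors. The 3 Gpr probe sets of this class did not pass. Gpr158, which binds the signalling regulator RGS7 and is reported to respond to glycine, had differences of 0.27 on 1438526_at (limma, adjusted p = 0.278) and 0.06 on 1459430_at. Its retinal relative Gpr179 had -0.19.

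Receptors of glia and endothelium gave 4 probe sets, none of which passed. Gpr17, known from oligodendrocyte precursors, read 6.26, 6.46, 6.02 and 6.31 in null arrays, 6.10 in the heterozygote, and 6.31, 6.22 and 6.47 in wild type arrays, a difference of -0.07. Gpr37, known from oligodendrocytes and astrocytes, had 0.06. On the other 2 every null array was below every wild type array, as on 8.85% of all probe sets. The proton-sensing receptor Gpr4 of endothelium read 7.40, 7.19, 7.40 and 7.42 in null arrays, 7.28 in the heterozygote, and 7.47, 7.45 and 7.64 in wild type arrays. The difference was -0.17 and did not pass (limma, adjusted p = 0.414). Gpr182, known from endothelium, read 5.51, 5.46, 5.26 and 5.56 in null arrays, 5.45 in the heterozygote, and 5.65, 6.17 and 5.85 in wild type arrays. Its difference of -0.44 was larger in size than those of the other 3 and did not pass either (limma, adjusted p = 0.166). Gpr182 lay under the median signal, where 75% of all probe sets had a difference below 0. The mean of the oligodendrocyte lineage markers was 7.87 to 8.22 in null and 7.89 to 8.22 in wild type arrays. That of the endothelial markers was 6.893 to 7.450 in null and 6.786 to 6.999 in wild type arrays, and their part in the values of Gpr4 and Gpr182 was not tested.

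Receptors of leukocytes and of chemoattractants form the second largest role, with 17 probe sets for 14 genes. None passed, on none did the groups stand apart, and their median log2 difference was -0.09. All but 1 of the 17 lay under the median signal. Gpr34, a lysophosphatidylserine receptor of microglia, read 4.27, 4.24, 4.27 and 4.55 in null arrays, 4.09 in the heterozygote, and 4.35, 4.17 and 4.10 in wild type arrays, a difference of 0.12 (limma, adjusted p = 0.576). Gpr84, a receptor for medium-chain fatty acids that microglia switch on in inflammation, had -0.09 (adjusted p = 0.676). The mean of the 12 microglial markers was 6.91 to 7.27 in null, 6.77 in heterozygote and 6.78 to 6.93 in wild type arrays. On 6 of these 12 the null arrays were all above the wild type arrays, against 7.7% of all probe sets. They were Csf1r (0.67), Tyrobp (0.66), C1qa (0.63), Cx3cr1 (0.53), C1qc (0.48) and Fcrls (0.32), with adjusted p of 0.0577 to 0.214 in limma. Differences of the other 6 lay between -0.30 and 0.21. Their part in the values of the leukocyte receptors was not tested.

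Proteins with a Gpr name that act on internal membranes, or whose structure departs from the classical receptors, gave 16 probe sets for 9 genes. None passed, and the median log2 difference was -0.03. Gpr155, a lysosomal cholesterol sensor, read 7.48, 7.35, 7.36 and 7.62 in null arrays, 8.24 in the heterozygote, and 8.92, 6.73 and 7.65 in wild type arrays. The wild type values spanned the null values, and the difference was -0.32 (limma, adjusted p = 0.640). As on Gpr6, wild type replicate 1 was the highest of all arrays. Without it the sign of the Gpr155 difference turned, to 0.26 (adjusted p = 0.457). Gpr107, a protein of the Golgi, had 5 probe sets with differences between -0.49 and 0.48. On 1459788_at, with -0.49, the groups did not overlap (limma, adjusted p = 0.196). The margin was small, with a highest null value of 8.066 and a lowest wild type value of 8.082. Gpr180 had a difference of -0.01.

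Of the 59 genes, 21 had more than 1 probe set and 38 had 1. The probe sets of 10 genes had differences of the same sign, all above 0 in 3 genes (Gpr83, Gpr149 and Gpr158) and all below 0 in 7. In the other 11 genes the signs were mixed, and these include Gpr12, Gpr22, Gpr85, Gpr107, Gpr161 and Gpr173. Gpr6 and Gpr153 each rest on a single probe set, so no second probe set can be set beside either call. Which part of a transcript each probe set reads was not analysed here.

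**Figure D3:**
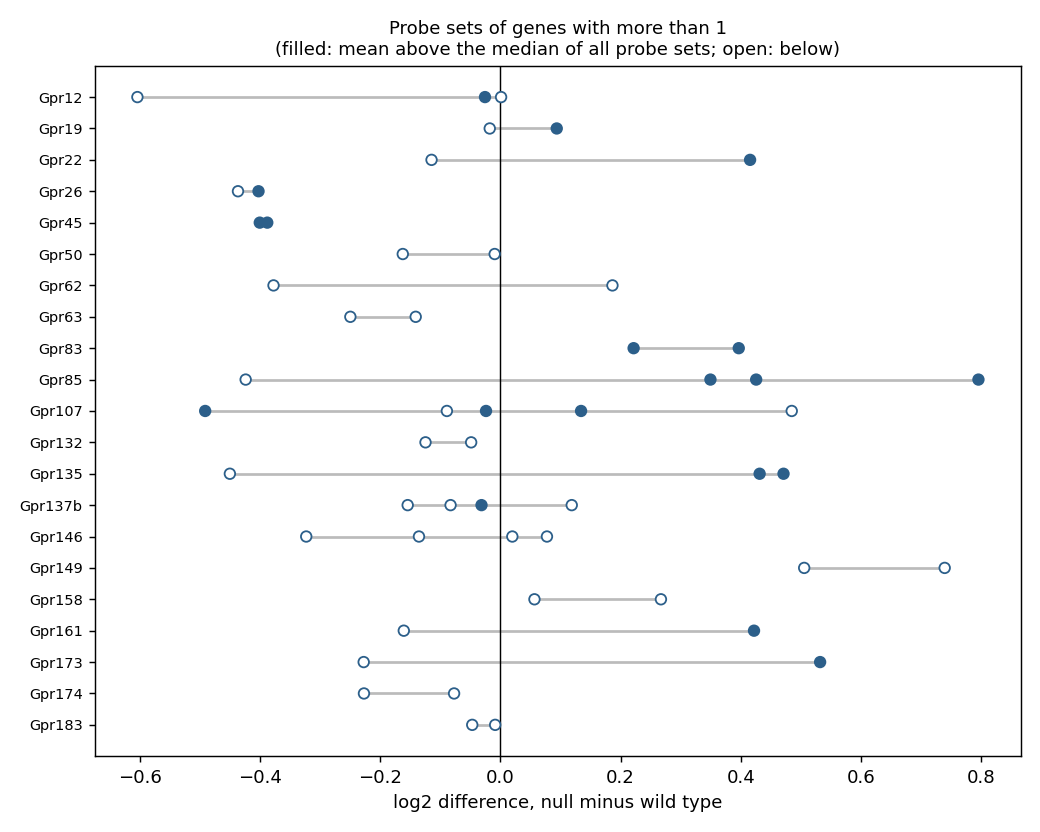
Log2 difference, null minus wild type (horizontal axis), of every probe set of the 21 genes with more than 1, joined by a line for each gene. Filled points have a mean above the median of all probe sets and open points one below it. Gpr149 and Gpr83 lie above 0 and Gpr26 and Gpr45 below 0 on both of their probe sets, whereas Gpr85 spans -0.42 to 0.80.

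The genes through which Gs- and Golf-coupled receptors act were taken as a list of 24 measured genes, each on its probe set of highest mean. The list was chosen with earlier results of these data known, so its counts are a description and no test. By limma 1 rose and 5 fell, where 1.87% and 0.453% of all probe sets did, and 18 did not pass. Every null array was above every wild type array on 8 of the 24 and below on 6, against 7.7% and 8.85% of all probe sets. All but 2 of the 24 lay above the median signal, where 12.1% and 7.95% of all probe sets stood apart in these ways. The median log2 difference of the list was 0.23, of opposite sign to most of its calls. It was -0.08 over all probe sets and 0.01 over those above the median signal. Of the 5 that fell, Gng7, Pde10a and Ppp1r1b are also on the list of medium spiny neuron markers. Gng7, the G protein gamma subunit that partners Golf, fell by 1.63 (3.10-fold lower, adjusted p = 0.00444). It read 8.34, 7.80, 8.28 and 8.61 in null arrays, 9.98 in the heterozygote, and 10.12, 9.91 and 9.64 in wild type arrays. Gnal, the alpha subunit of Golf, had a difference of -0.75 (adjusted p = 0.0179). Pde10a, which breaks down cyclic nucleotides, had -1.04 (adjusted p = 0.00489). Ppp1r1b (DARPP-32), the target of protein kinase A in these cells, had -1.30 (adjusted p = 0.0235), and the adenylyl cyclase Adcy1 had -0.96 (adjusted p = 0.0463). The gene that rose, the phosphodiesterase Pde4b, had 0.69 (adjusted p = 0.0291). Adcy5, the main adenylyl cyclase of the adult striatum, had 0.30 and did not pass (adjusted p = 0.336).

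**Figure D4:**
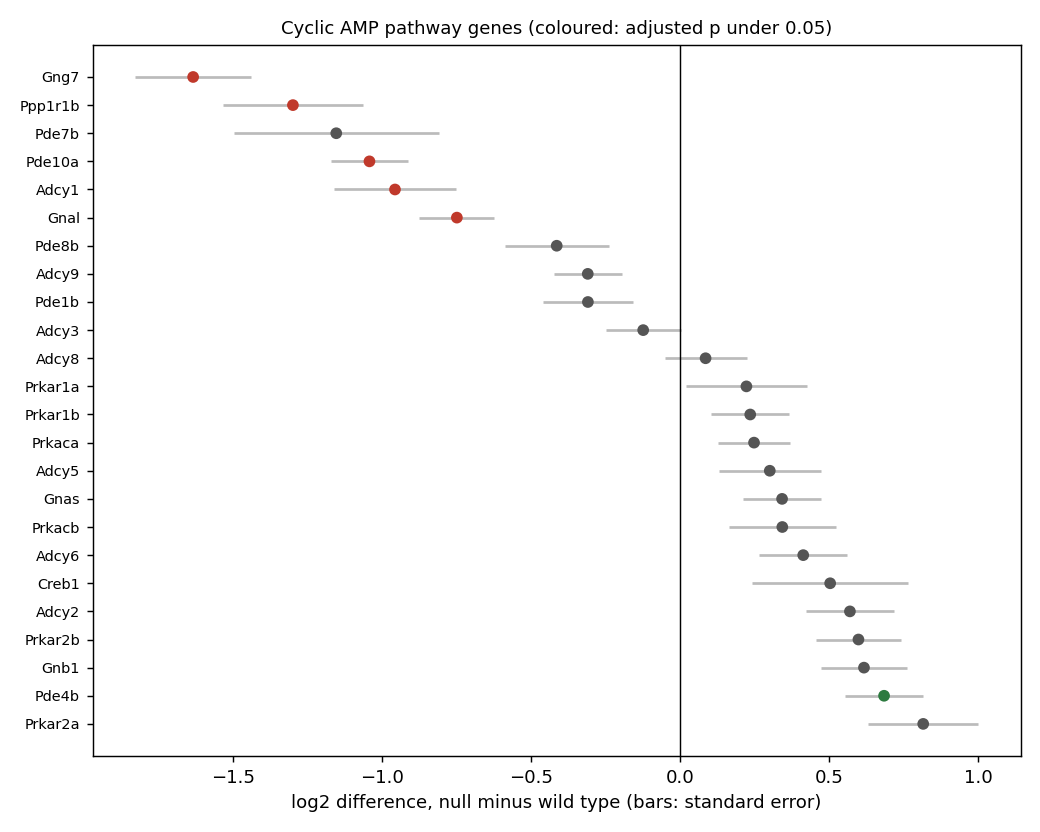
Log2 difference, null minus wild type (horizontal axis), of 24 genes of the cyclic AMP pathway, with bars for the standard error. Coloured points passed the threshold in limma. They are Gng7, Ppp1r1b, Pde10a, Adcy1 and Gnal below 0 and Pde4b above 0.

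None of 7 measured receptor kinases and arrestins, which shut off receptors of this kind, passed. Of the genes that mark the indirect pathway neurons to which Gpr6 belongs, 2 were measured and neither passed. The listed genes Adora2a and Sp9 had no probe set with that single symbol. Drd2 read 7.89, 7.46, 7.75 and 7.51 in null arrays, 8.08 in the heterozygote, and 7.66, 8.01 and 7.91 in wild type arrays, a difference of -0.21 (limma, adjusted p = 0.422). Penk had a difference of 0.21 (limma, adjusted p = 0.675), with an SD of 0.77 in wild type and 0.17 in null arrays. Among 7 genes of direct pathway neurons, Drd1 fell by 0.93 (adjusted p = 0.0438) and the others did not pass. Of 17 measured G protein-coupled receptors of striatal neurons with other names, 3 fell, Drd1, the muscarinic receptor Chrm1 (-0.84, adjusted p = 0.0169) and the serotonin receptor Htr1b (-0.68, adjusted p = 0.0209), and 1 rose, the glutamate receptor Grm3 (0.92, adjusted p = 0.00858). Over all probe sets 0.453% fell and 1.87% rose, but these lists too were chosen with earlier results of these data known. The median of the list of 17 receptors was -0.10.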

How the data were processed

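RNA of 8 striata (4 null, 1 heterozygote, 3 wild type) was measured on Affymetrix arrays. The authors deposited 1 log2 value per probe set and array, computed with Bioconductor's RMA as the design text states, per the labels. Neither the RMA version nor the set of arrays normalized together is given there. Symbols came from the platform annotation and matched the RefSeq gene table for all 59 member genes. A further 5 probe sets with a Gpr symbol among several were left out.

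Null and wild type arrays were compared with limma 3.58.1 in R 4.3.3 (lmFit and eBayes, 7 arrays, no covariate), with Benjamini-Hochberg adjustment over 45037 probe sets. The code was tested on simulated data. The heterozygote entered only 2 alternatives. Named members are those that passed, the probe sets of 26 preset genes (21 measured), the 5 of highest mean, and the 5 of largest difference among those above the median signal with no overlap that did not pass. A few others were named after their values were seen. Roles, members and lists were chosen with earlier results of these data known. Arrays with the same replicate number did not deviate together (correlations of -0.31 to -0.17). No 2 arrays were identical. Plots used Python 3.11.15 and matplotlib 3.10.9.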

Additional observations from a re-analysis of the deposited data

Results flagged for a closer look

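On 5 member probe sets 1 null array stood far from the other 3, its gap to the nearest taking up more of the group's range than Dixon's critical value for a group of 4. The array was null replicate 4 on Gpr85 1424896_at (gap 0.929 of the range, 8.85 against a nearest value of 9.49), on Gpr149 1438210_at (0.831, 4.04 against 4.73) and on Gpr34 1422542_at (0.890, 4.55 against 4.27). It was null replicate 2 on Gpr37 1450875_at (0.853, 6.82 against 6.47) and on Gpr4 1457745_at (0.898, 7.19 against 7.40). Chance gives about 1 such gap in 20 groups, and 40 named probe sets were examined. The wild type group of 3 was not examined in this way.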

How the results depend on the processing

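Across 20 alternatives Gpr6 stayed lower (-2.58 to -1.35) and passed in 12, with adjusted p of 0.00777 to 0.140. Gpr153 stayed higher (0.98 to 1.44) and passed in 14 (0.00311 to 0.181). For both, the passes at an adjusted p of 0.1 and with the heterozygote as its own group were fixed in advance, as these repeat the main fit. Gpr6 was kept by the filter on dim probe sets only through its wild type values (mean 6.45, null mean 5.52, median of all probe sets 6.30). The members that passed, 1 higher and 1 lower, became 5 and 4 with array weights, 10 and 16 by a SAM-type d score beyond 2 (which took 10.3% and 12.7% of all probe sets), 0 and 0 with the SD of each array as a covariate, and 0 and 0 with the heterozygote among the controls. None was lower with arrays centred on their median, 2 were lower at an adjusted p of 0.1 (Gpr6 and Gpr26), and 0 were higher without null replicate 2 and wild type replicate 1. Leaving out 1 array at a time gave 0 to 3 higher and 0 to 1 lower, and 210 to 1733 higher and 76 to 443 lower over all probe sets. With the replicate number as a block, 2 were higher and 1 lower, Gpr6 at -2.33 (limma, adjusted p = 0.00777). No wild type array shares the number of null replicate 4, so the block gives the same differences as leaving that array out. The numbers do not pair the animals. Over all probe sets, higher and lower calls were 840 and 204 in the main setting, 2686 and 965 with array weights, 189 and 93 with the SD covariate, 110 and 96 with the heterozygote among the controls, and 1696 and 212 with the block. Of 38 named members that did not pass, 25 passed under no alternative, 8 by the d score alone, and 12 changed sign in some alternative. The causes were not tested. The values hold no detection calls, so how far the dim probe sets lie above background is unknown.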

Other observations

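The heterozygote was above all 7 other arrays on 13 of the 91 Gpr probe sets (14.3%) and below all of them on 13 (14.3%). Over all probe sets the shares were 11.3% and 20.1%. Among the 54 members under the median signal it was above on 9.26% and below on 20.4%, against 5.89% and 26.9% of all probe sets under that median. It is 1 array, so none of these shares was tested.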
